A study of Drosophila melanogaster with 5 samples.

Results

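These results describe the places on the euchromatic X chromosome where MLE peaks were called without both control libraries of the youngest embryos calling them. MLE (Maleless), the helicase subunit of the complex that doses the X chromosome in Drosophila melanogaster, was mapped here by CUT&RUN, in which an antibody against the protein directs a DNA-cutting nuclease to it and the released fragments are sequenced. Peaks of the 5 libraries that shared at least 1 bp were merged into 2263 regions. Of these, 519 lay on X with a start below 20.5 Mb, and 292 of the 519 did not hold a peak of both 0-2 h control libraries. The 292 regions were therefore selected on the calls of those 2 lists, and their calls there are a description and not a result. The other 227 X regions held a peak of both lists and serve as the comparison, under the name shared X regions.

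All embryos were female, since the fathers carried a meiotic drive system that passes on X-bearing sperm only. In every group the mothers carried the germ-line driver MTD-GAL4, so that the hairpin RNA was made in the mother and not in a chosen tissue of the embryo. One library came from 0-2 h embryos of mothers with UAS-CLAMPRNAi[val22] (clampRNAi), which depletes the zinc finger protein CLAMP. The controls came from mothers with a hairpin against GFP, with 2 libraries from 2-4 h embryos, after the maternal-to-zygotic transition, and 2 from 0-2 h embryos, before it. Whole embryos were pooled from several crosses and egg-layings, with no label that ties a library to a batch, and the lists measure DNA fragments, so neither the depletion nor a cell type could be checked from RNA. Sequencing depth is unknown, and a library without the antibody was not used here.

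In male flies MLE unwinds the roX RNAs and lets them assemble with the MSL proteins, and the complex spreads along the single X and raises its transcription. In females the MSL2 subunit is not made and the complex does not form, while MLE itself is present from the mother and acts on RNA at other genes. CLAMP binds GA repeats on X, to which the complex is recruited in males. The genome sequence and the exons of the regions were not analysed here, so no region is assigned to an exon, an intron or a promoter.

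Nearly all of the 292 regions came from the libraries numbered 2. Of the 292, 282 (96.6%) were called in 2-4 h control replicate 2, in 0-2 h control replicate 2 or in both, and in no other library. They fell into 3 groups. The first held 78 regions called in 2-4 h replicate 2 alone, the second 63 called in both replicates 2, and the third 141 called in 0-2 h replicate 2 alone. Single-library calls made up 226 regions, 65 were called in 2 libraries, and 1 was called in 3. The weight of the libraries numbered 2 was not particular to X. On arms 2L, 2R, 3L and 3R, 835 regions were not called in both 0-2 h controls. Of these 835, 476 were called in 2-4 h replicate 2 alone, 115 in both replicates 2 and 182 in 0-2 h replicate 2 alone.

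The remaining lists contributed 10 regions. The clampRNAi library called 3 of the 292 (1.03%, Clopper-Pearson 95% interval 0.212% to 2.97%), against 21.0% of all merged regions of the series and 178 of the 227 shared X regions (78.4%). The 2-4 h control replicate 1 called 2 (0.685%, 0.0831% to 2.45%), against 15.7% of all merged regions and 142 shared X regions (62.6%). The 2-4 h control replicate 2 called 141 (48.3%, 42.4% to 54.2%), against 70.2% of all regions and 124 shared X regions (54.6%). In the lists that chose the members, 0-2 h control replicate 1 called 7 regions and replicate 2 called 206, with 30.8% and 54.0% of all merged regions called in those lists. These intervals cover counting error over regions only. With 1 clampRNAi library no difference between genotypes could be tested.

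**Figure D1:**
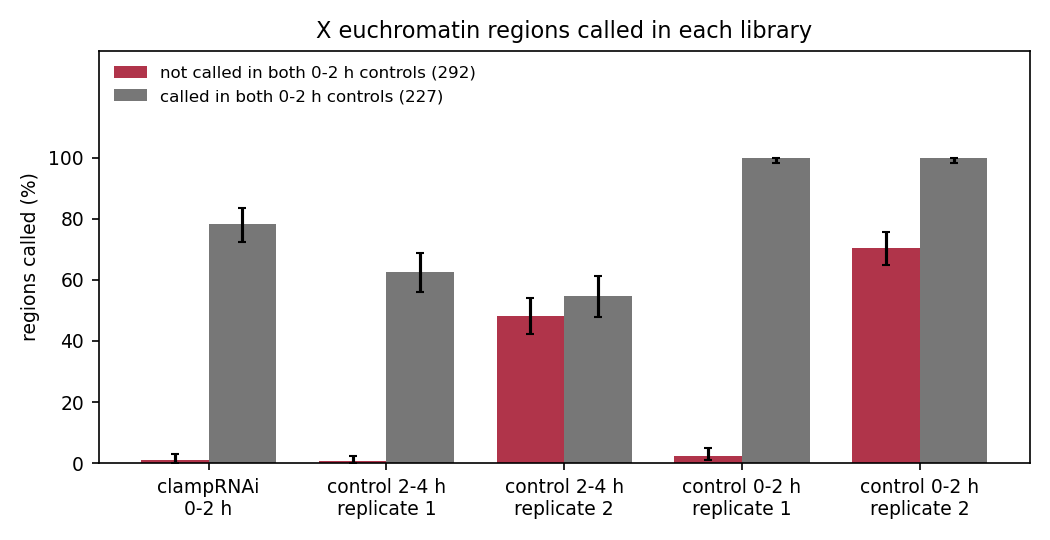
Share of X euchromatin regions called in each library, in percent, for the 292 regions not called in both 0-2 h controls and the 227 called in both, with Clopper-Pearson 95% intervals. The intervals cover counting error over regions only. In the 0-2 h control lists the values follow from the choice of the sets, and no difference was tested. Apart from the lists that define the sets, the 292 regions were called almost only in 2-4 h control replicate 2 (48.3%), with 1.03% in clampRNAi and 0.685% in 2-4 h control replicate 1.

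List length bears on this. The lists held 493 peaks after clampRNAi, 370 and 1589 in the 2-4 h controls, and 723 and 1247 in the 0-2 h controls. When each list was cut to the 370 strongest peaks by total signal, 106 X regions were outside the overlap of the 0-2 h controls, and 41 of the 292 regions overlapped one of them. Of those 106, 38 were called in clampRNAi, 2-4 h replicate 1 and 0-2 h replicate 1 together, 28 in both replicates 2, 12 in 0-2 h replicate 2 alone and 1 in 2-4 h replicate 2 alone. Regions called in replicates 2 and in no other library were then 41 of 106 (38.7%), against 282 of 292 with the lists as deposited. The clampRNAi library called 56 of the 106. The share of all merged regions that it called at this list length is not given here, so this count is a description.

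The groups differed in width and strength, as the plot of widths shows. The 78 regions of 2-4 h replicate 2 alone were broad, with a median of 3500.5 bp and a range of 1384 bp to 14783 bp, and 0 were under 200 bp. The 63 regions of both replicates 2 had a median of 808 bp, from 62 bp to 7513 bp. The 141 regions of 0-2 h replicate 2 alone were narrow, with a median of 68 bp and a range of 43 bp to 1316 bp, and 108 of them (76.6%) were under 200 bp. Shared X regions, merged over the peaks of several lists, had a median of 378 bp and ran from 47 bp to 3491 bp. Within 0-2 h replicate 2, peaks at the 227 shared X regions had a median of 86 bp, and 176 (77.5%) were under 200 bp. Narrow peaks were thus common in that list and not particular to the 141. Within 2-4 h replicate 2, peaks at the 124 shared X regions it called had a median of 739.5 bp. The same groups on arms 2L, 2R, 3L and 3R had medians of 3567.5 bp, 664 bp and 100.5 bp, so these widths were not particular to X. Together the 292 regions covered 420.4 kb, of which the 78 broad ones made up 312.1 kb, while the 227 shared X regions covered 140.1 kb.

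**Figure D2:**
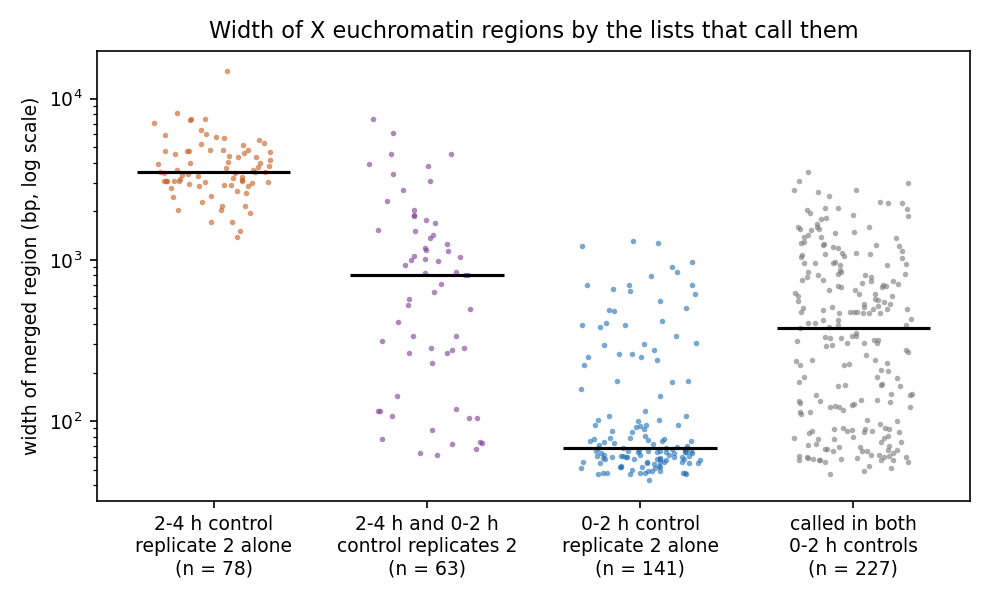
Width of merged X euchromatin regions in bp on a log axis, by the lists that call them, with 1 point per region and a line at the median. Medians are 3500.5 bp for 2-4 h control replicate 2 alone, 808 bp for both replicates 2, 68 bp for 0-2 h control replicate 2 alone and 378 bp for regions called in both 0-2 h controls. The last set is merged over several lists, and within 0-2 h control replicate 2 its peaks had a median of 86 bp.

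Peaks inside the 292 regions had a median width of 213 bp in 2-4 h replicate 1 (2 peaks) and 2855 bp in 2-4 h replicate 2 (141 peaks), against 426 bp in 0-2 h replicate 1 (7 peaks) and 75.5 bp in 0-2 h replicate 2 (206 peaks). On the log2 scale the library medians averaged 9.38 ± 2.97 at 2-4 h and 7.49 ± 1.77 at 0-2 h (SD, n = 2 each). The difference of 1.89 is a description, since the calls of both 0-2 h lists chose the regions, and with 2 libraries against 2 no permutation p could fall below 0.333. Within replicate 1 the difference of 2-4 h minus 0-2 h was -1.46, and within replicate 2 it was 5.24. The lists numbered 1 hold few of these peaks. Without 2-4 h replicate 2 the difference turned to -0.20.

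The broad regions of 2-4 h replicate 2 carried little signal per base. Signal is quoted in the authors' units, as the maximum or the total over a peak, and a percentile ranks a peak by total signal within its own list. The maximum of the 78 broad regions had a median of 16.5 and a range of 7 to 197, and their median signal was 6.15 per bp, against 88.4 per bp in 2-4 h replicate 2 at the regions of both replicates 2. Their median percentile was 24.2, and 9 of 78 ranked in the upper 50% of the list.

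The broad region of highest rank lay over the Stellate genes, a tandem array of testis genes that encode a casein kinase regulatory subunit-like protein and are silenced by small RNAs in the germ line. It spanned 14783 bp (X:14046741-14061523, dm6), was called in 2-4 h replicate 2 alone at a percentile of 93.3 with a maximum of 51, and touched all 12 annotated Ste genes of the array, 11 of which lay wholly inside it. The copies are near-identical and how the authors treated reads that align to several places is not given in the sources used here, so the position of this signal within the array is uncertain. The next ranked broad regions lay in nAChRalpha3, a nicotinic acetylcholine receptor subunit gene (X:8293029-8296283, percentile 76.0, maximum 52), and across one end of Tsp3A, a tetraspanin gene (X:2610790-2618116, percentile 67.2, maximum 28). The other widest regions were 8142 bp across one end of lncRNA:CR44657 (X:14106032-14114173, maximum 11), 7511 bp in kirre, an immunoglobulin-family gene of myoblast fusion (X:2825320-2832830, maximum 10), and 7503 bp in lncRNA:CR44779 (X:1065047-1072549, maximum 11). Among the 5 widest was also a region of both replicates 2, in the Tousled-like kinase gene Tlk (X:3753465-3760977, 7513 bp), with a maximum of 16 in 2-4 h replicate 2 and of 14 in 0-2 h replicate 2.

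The 63 regions of both replicates 2 included the strongest of the set. A region in CG44422 (X:11295825-11297869) had the highest maximum, 96466 in 2-4 h replicate 2 and 64683 in 0-2 h replicate 2, at percentiles of 99.2 and 98.6, and was called in none of the other 3 lists. A 104 bp region in Pde9, a cyclic nucleotide phosphodiesterase gene (X:12808495-12808598), had maxima of 61258 in 2-4 h replicate 2 and of 59621 in 0-2 h replicate 2. In tyn (X:179327-179824) the maxima were 28175 in 2-4 h replicate 2 and 27126 in 0-2 h replicate 2. In Tomosyn, which encodes a syntaxin-binding protein that limits transmitter release (X:12646907-12647021), they were 29727 in 2-4 h replicate 2 and 27362 in 0-2 h replicate 2. A maximum of at least 1000 was reached at 35 of the 63 regions in 2-4 h replicate 2 and at 30 of them in 0-2 h replicate 2.

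At these 63 regions the authors' maxima were close to equal in the pair of libraries. The 2-4 h replicate 2 maximum divided by that of 0-2 h replicate 2 had a median of 1.11 and quartiles of 1.02 and 1.24, with extremes of 0.541 and 4.00, and it was above 1 at 49 of 63. At the 124 shared X regions called in 2-4 h replicate 2 the same ratio had a median of 0.553 and quartiles of 0.520 and 0.615, with extremes of 0.424 and 2.50, and it was above 1 at 6 of 124. The scales of the lists are unknown, so neither ratio measures a change. Both sets were chosen on the calls of the 0-2 h lists, and 0-2 h replicate 2 also supplies the divisor of the ratio. The difference between the sets is therefore a description. It was not tested, and regions of 1 genome are not replicates. The maxima lay at the same place: the midpoints of the strongest part were within 10 bp of each other at 55 of the 63 regions, with a median distance of 2 bp, and at 120 of the 124. Peaks at the 63 regions covered a median of 800 bp in 2-4 h replicate 2 and 101 bp in 0-2 h replicate 2, and were wider in 2-4 h replicate 2 at 55 of 63.

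**Figure D3:**
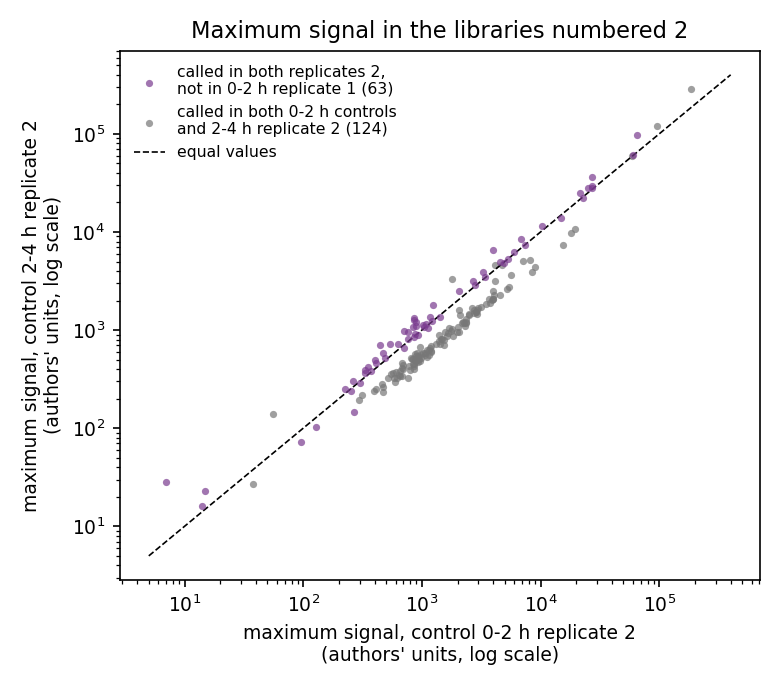
Maximum signal in control 2-4 h replicate 2 against that in control 0-2 h replicate 2, in the authors' units on log axes, for the 63 regions called in both replicates 2 but not in 0-2 h replicate 1 and for the 124 regions called in both 0-2 h controls and in 2-4 h replicate 2. The 63 regions lie about the dashed line of equal values (median ratio 1.11) and most of the 124 below it (median ratio 0.553).

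The 141 regions of 0-2 h replicate 2 alone lay in the lower part of that list. Their percentiles ran from 0.642 to 49.7 with a median of 19.9, and 0 of 141 ranked in the upper 50%, against 53 of the 63 regions of both replicates 2 and 170 of the 227 shared X regions. Maxima ran from 10 to 449 with a median of 202. The highest ranked lay in CG32683 (X:10442086-10442150, 65 bp, maximum 357), 46 bp from Scgdelta, a sarcoglycan gene of muscle (X:1735821-1735899, 79 bp, maximum 317), and in Appl, the fly homologue of the amyloid precursor protein gene (X:576988-577131, 144 bp, maximum 261).

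Set against the weakest peak of each list, the total signal of these 141 regions was low. Their total in 0-2 h replicate 2 ran from 6000 to 16001. The lowest total of any peak was 6840 after clampRNAi, 13050 and 18175 in the 2-4 h controls, and 10424 and 5960 in the 0-2 h controls. All 141 were below the lowest total of 2-4 h replicate 2, 133 were below that of 2-4 h replicate 1, 107 below that of 0-2 h replicate 1 and 35 below that of clampRNAi. The 63 regions of both replicates 2 differed in this: their totals in 0-2 h replicate 2 ran from 7067 to 3997067, and 58 of 63 were at or above the lowest total of 0-2 h replicate 1, which called none of them. Among the 227 shared X regions, the total in 0-2 h replicate 2 was below the lowest total of 2-4 h replicate 2 at 71. It was below that of 2-4 h replicate 1 at 35, of 0-2 h replicate 1 at 13 and of clampRNAi at 1. Since the scales may differ between lists, these counts describe the deposited values and do not say what deeper lists would hold.

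**Figure D4:**
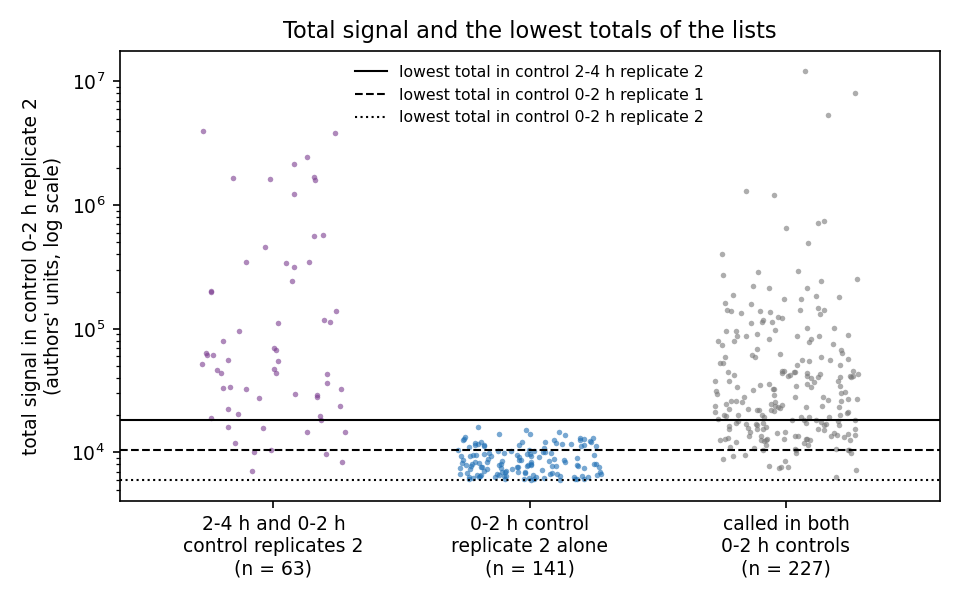
Total signal in control 0-2 h replicate 2, in the authors' units on a log axis, with 1 point per region, for regions of both replicates 2, of 0-2 h replicate 2 alone and of both 0-2 h controls. Horizontal lines mark the lowest total of any peak in control 2-4 h replicate 2 (18175), control 0-2 h replicate 1 (10424) and control 0-2 h replicate 2 (5960), and all 141 regions of 0-2 h replicate 2 alone lie under the first.

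The regions with a peak of another library were few. Called in clampRNAi and 0-2 h replicate 2 were a region 480 bp from inc, a sleep gene that encodes a Cullin-3 adaptor (X:1518095-1518175), with maxima of 177 after clampRNAi and 299 in 0-2 h replicate 2, and a region in Fas2, a neural cell adhesion gene (X:4190229-4190708), with maxima of 152 after clampRNAi and 208 in 0-2 h replicate 2.

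The 6 regions of 0-2 h replicate 1 alone had a median width of 427.5 bp. Those of highest rank lay 785 bp from the mucin-related gene Mur11Da (X:12966090-12967103, percentile 36.7, maximum 39), 56825 bp from SteXh:CG42398 (X:59005-59433, percentile 12.9, maximum 27) and in mRpL38, a mitochondrial ribosomal protein gene (X:14226307-14226910, percentile 10.6, maximum 36). The other 3 lay in CG2186, in oc, the head homeobox gene orthodenticle, and 172 bp from CG5273, at percentiles of 8.02, 0.830 and 2.14.

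Of the X genes of dosage compensation and X counting, 1 of 7 was touched, against 8.85% of all X genes, and shared X regions touched 0 of the 7. The region beside roX2, one of the non-coding RNAs of the complex, overlapped one end of that gene and also CG11695 (X:11578766-11579124) and was called in 2-4 h replicate 1 alone, with a maximum of 115 at a percentile of 45.4. The nearest region to roX1 was 29051 bp away, and the nearest to Sxl, the female switch gene, was 29532 bp away.

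The regions were spread along the arm. In 5 equal stretches of 4.1 Mb from its start, the 292 regions numbered 64, 50, 64, 59 and 55, against 41, 54, 47, 48 and 37 shared X regions. The broad regions of 2-4 h replicate 2 were the least even, with 28 of 78 in the first stretch and 9, 13, 18 and 10 in the others. At the limit of 20.5 Mb, the last regions inside lay in aspr (X:20153630-20153685) and at X:20481748-20481806, both called in 0-2 h replicate 2 alone. The first ones outside lay 2165 bp from RunxB (X:20536267-20536332), in the same list, and in RunxA (X:20618575-20620346), in 2-4 h replicate 2 alone.

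Distances to shared X regions were measured from edge to edge. No share expected from placement alone was computed, so the counts are a description. The median distance to the nearest shared X region was 38.4 kb for regions of 2-4 h replicate 2 alone, 30.1 kb for those of both replicates 2 and 20.2 kb for those of 0-2 h replicate 2 alone. Of all 292, 39 (13.4%) lay within 5 kb and 1 within 150 bp of one.

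Set beside chromosome arms 2L, 2R, 3L and 3R, the groups were not alike. Regions of 0-2 h replicate 2 alone numbered 6.88 per Mb on X below 20.5 Mb and 1.67 per Mb on the autosomal arms, a ratio of 4.12. Regions of both replicates 2 numbered 3.07 per Mb on X and 1.06 per Mb on the autosomal arms, a ratio of 2.91. Broad regions of 2-4 h replicate 2 alone numbered 3.80 per Mb on X and 4.37 per Mb on the autosomal arms, a ratio of 0.871. For regions called in both 0-2 h controls the ratio was 4.55. The autosomal arms were taken whole, with the sequence near their centromeres, which X below the limit leaves out, and no test was made over regions.

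The share of the regions that lay in genes was near the share of the sequence that genes cover. The midpoint was inside a gene extent at 227 of 292 (77.7%), at 187 of the 227 shared X regions (82.4%), and gene extents covered 79.3% of X below the limit. By group this held for 54 of 78 regions of 2-4 h replicate 2 alone (69.2%), 58 of 63 of both replicates 2 (92.1%) and 110 of 141 of 0-2 h replicate 2 alone (78.0%). Within 500 bp of a gene start or end lay 31 midpoints (10.6%), against 19 of the shared X regions (8.37%) and 17.1% of the sequence.

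Genes touched by the regions were long, but a longer gene has more bases to share with a region. No share expected from gene length alone was computed. The regions shared a base with 221 of the 2498 genes of X below the limit, 8.85%. Those 221 had a median length of 17.1 kb, against 2.10 kb for all 2498. With the genes split into 4 equal sets by length, 164 of 625 of the longest set were touched (26.2%), against 18, 20 and 19 genes in the shorter sets (2.88% to 3.21%). Of the 73 genes of at least 50 kb, 55 were touched (75.3%), and shared X regions touched 45 of the 73 (61.6%). Both kinds of region touched the same 68 genes, which is 30.8% of the 221 and 48.9% of the 139 genes touched by shared X regions.

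**Figure D5:**
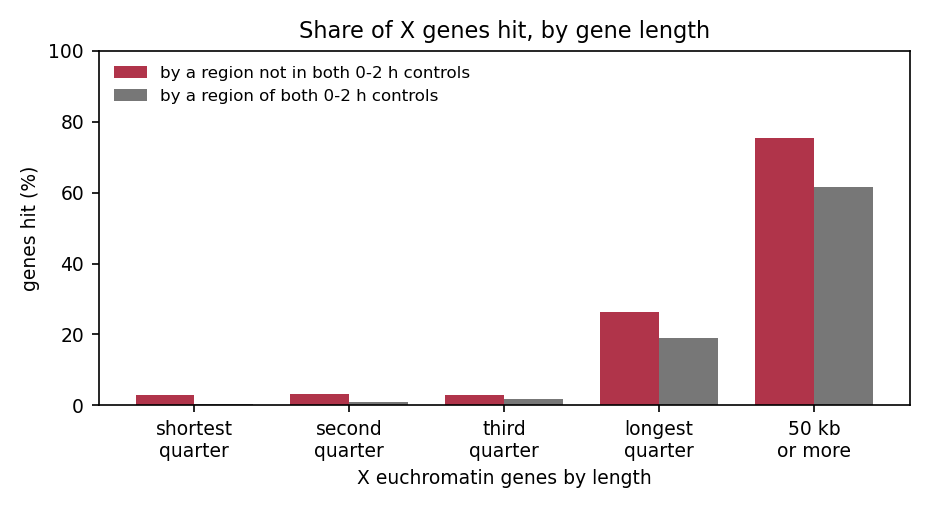
Percent of X euchromatin genes that share a base with a region, in 4 equal sets by gene length and for the 73 genes of at least 50 kb, for the 292 regions not in both 0-2 h controls and for the 227 in both. In the longest set 26.2% of genes were touched by the 292 regions and 19.0% by the shared regions, and among genes of at least 50 kb 75.3% and 61.6%.

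Some genes held several of the regions. CG15465 and rg, an A-kinase anchoring protein gene of the neurobeachin family, have the same extent in the gene table (X:5085759-5254864) and held 6. Tlk and dnc, the cyclic AMP phosphodiesterase gene dunce, held 5 each, and SK, a calcium-activated potassium channel gene, Hr4, a nuclear receptor gene, lncRNA:CR44357, Ten-a, a teneurin gene of synaptic partner matching, and kirre held 4 each. All of these but Hr4 also held shared X regions, and 6 genes, namely CG15465, rg, Tlk, dnc, Ten-a and lncRNA:CR44357, held all 3 groups. In dnc the regions of both replicates 2 had maxima of 286, 1221 and 1247 in 2-4 h replicate 2 and of 303, 898 and 1213 in 0-2 h replicate 2. A broad region of 5731 bp in the same gene had a maximum of 11 in 2-4 h replicate 2, and a 47 bp region had 283 in 0-2 h replicate 2.

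Of the gene lists drawn up for the X chromosome, with 8.85% of all genes touched, 6 of 16 ion channel genes, 8 of 20 cell adhesion and axon guidance genes, 11 of 34 transcription factor genes and 6 of 15 signalling genes were touched. Shared X regions touched 4 of the 16, 5 of the 20, 9 of the 34 and 3 of the 15. The median lengths of these lists were 19.5 kb, 46.3 kb, 17.8 kb and 24.5 kb, far above that of all X genes, so these shares are not set against chance. Synaptic traffic genes (1 of 13, Frq1, a neuronal calcium sensor gene), maternal and early zygotic genes (1 of 15) and RNA-binding genes (2 of 7) had median lengths of 6.47 kb, 4.53 kb and 9.98 kb. Shared X regions touched 3 of the 13, 0 of the 15 and 1 of the 7.

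Among ion channels, SK held 1 region of both replicates 2, with a maximum of 425 in 2-4 h replicate 2 and of 353 in 0-2 h replicate 2, and 3 of 0-2 h replicate 2 alone. The voltage-gated sodium channel gene para held a broad region of 4048 bp in 2-4 h replicate 2 (maximum 10) and 2 narrow ones in 0-2 h replicate 2 (maxima 449 and 96). The calcium channel gene cac held 1 broad region in 2-4 h replicate 2 (3528 bp, maximum 15) and 1 narrow one in 0-2 h replicate 2 (66 bp, maximum 181). The potassium channel gene Sh held 2 narrow regions, both in 0-2 h replicate 2 alone.

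Among adhesion and guidance genes, kirre held 2 broad regions in 2-4 h replicate 2 and 2 regions in 0-2 h replicate 2. The receptor tyrosine phosphatase gene Ptp10D held 3 broad regions, all of them in 2-4 h replicate 2 alone, of 2153 bp, 5567 bp and 3102 bp with maxima of 55, 9 and 27. The netrin gene NetB held 2 narrow regions in 0-2 h replicate 2 alone, with maxima of 330 and 251.

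Among transcription factor genes, Hr4 was touched at its edge by a broad region in 2-4 h replicate 2 with its midpoint in CG3587 (X:1939912-1942842, maximum 121) and held 3 narrow ones in 0-2 h replicate 2 with maxima of 363, 243 and 164. The zinc finger gene mamo, needed in the germ line, held a region of both replicates 2 (X:13976091-13976719) with a maximum of 7386 in 2-4 h replicate 2 and of 7387 in 0-2 h replicate 2. Cph held a region of both replicates 2 with maxima of 387 in 2-4 h replicate 2 and of 374 in 0-2 h replicate 2. In disco-r such a region had 240 in 2-4 h replicate 2 and 255 in 0-2 h replicate 2. The ecdysone-response gene br held 1 region of 2-4 h replicate 2 alone and 1 of 0-2 h replicate 2 alone.

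Of the signalling genes, sgg, the fly glycogen synthase kinase 3 gene, held a region of both replicates 2 (X:2676390-2678162) with a maximum of 2904 in 2-4 h replicate 2 and of 2810 in 0-2 h replicate 2. The kinase gene Raf held 1 region of 0-2 h replicate 2 alone, which also lies in the nested insulin-like peptide gene Ilp6, at a percentile of 0.642. The phospholipase C gene norpA held 1 region in 0-2 h replicate 2 alone, at a percentile of 8.98. Within zld, the gene of the pioneer factor Zelda that opens the zygotic genome, lay a 55 bp region of 0-2 h replicate 2 alone (X:19766897-19766951, percentile 22.3, maximum 260). The RNA-binding genes fne and nonA held 1 broad region each in 2-4 h replicate 2 alone, of 4708 bp with a maximum of 14 and of 3086 bp with a maximum of 13.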

How the data were processed

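Per the labels, MLE was profiled by CUT&RUN (paired-end reads of 150 bp) in 5 libraries of pooled female embryos. Per the submitters' processing notes, Bowtie2 2.4.4 and SEACR 1.3 are named with the dm6 build, beside Trimmomatic 0.40, bcl2fastq 2.17 and deepTools, with no role or order stated. The authors deposited 1 peak list per library with the total and maximum signal of each peak. The sources used here give no control track, threshold, spike-in scaling or depth.

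Peaks sharing at least 1 bp were merged, and regions on X starting below 20.5 Mb without a peak of both 0-2 h controls were kept. Genes came from a RefSeq table of Release 6 (dm6), without strand, exons or sequence, so the planned motif and promoter searches were not run. A region is named by the gene extent at its midpoint, otherwise the nearest, and distances run from the nearer edge of the region. Coordinates are 1-based. Members, gene lists and rules were chosen with earlier results of these data known.

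Named regions were the 3 of highest mean percentile per pattern of calls (1 for patterns under 5 regions), the 5 in most lists, the 5 widest, the highest maximum per list and those at the limit. Named genes were roX1, roX2, Sxl, up to 8 with most regions and up to 5 per list. The genes first named in the closing section were chosen after their values were seen, as were the CG2186, oc and CG5273 regions. Listed genes off X or past the limit were dropped. The values of 1 region are not reported here.

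Merging was tested on simulated lists. Alternatives were equal list lengths (370 peaks), peaks of at least 200 bp, merging within 150 bp, calls by coverage of 50% of a region, the limit moved by 1 Mb, other gene extents and each library left out. Python 3.11.15, pandas 2.3.3 and SciPy 1.17.1 were used. The planned permutation test of peak width between ages is not reported, since the calls of the 0-2 h lists chose the regions. Replicates may be technical.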

Additional observations from a re-analysis of the deposited data

How the results depend on the processing

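With lists of equal length the number of regions became 106, those called in 1 library 24, the share called in 2-4 h replicate 2 29.2%, the median width 119 bp, the genes touched 101 and the regions called after clampRNAi 56. With peaks of at least 200 bp that share was 71.7%, the median width 1076 bp and the clampRNAi count 14, and 165 of the 292 regions overlapped one of the 286 regions then found. With calls by coverage of 50% there were 433 regions, of which 387 were single-library regions and 14 were called after clampRNAi. The shares of all merged regions called after clampRNAi under these settings are not given here, so these counts have no background beside them. Leaving out 1 library in turn gave 80 to 292 regions, 79 to 228 called in 1 library, 48.3% to 97.9% called in 2-4 h replicate 2, a median width of 77 bp to 3461 bp, 68.8% to 80.9% inside genes, 90 to 221 genes touched and 1 to 3 regions called after clampRNAi. The 2 lowest counts of regions, 80 without 0-2 h replicate 1 and 144 without replicate 2, follow from a definition with 1 early list. The width difference by age ran from -0.20 (without 2-4 h replicate 2) to 3.99. Merging within 150 bp and moving the limit by 1 Mb left each of these counts within 1.5 times. With 2-4 h replicate 2 left out, 215 regions with a median width of 77 bp touched 143 genes. Replicate numbers share no stated batch. The call differences of the pairs correlated at -0.0332 over the other 1971 regions. That value leaves out the 292 regions, and whether equal numbers mark a shared batch was not tested. With the number as a replicate block the width difference was 1.89 on the log2 scale. Depth is unknown, so a region without a call in a list may still be bound below its threshold.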

Other observations

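Among the 227 shared X regions, 5 of the 124 called in 2-4 h replicate 2 had a maximum in 0-2 h replicate 2 at least 10 times that of 0-2 h replicate 1. This set was chosen after its values were seen and was not tested. They lay at Tlk, Femcoat (an eggshell gene), CG15465, CanA-14F (a calcineurin subunit gene) and Rab10 (a small GTPase gene). The 2-4 h replicate 2 maximum divided by that of 0-2 h replicate 2 was 0.988 to 1.55 at these 5, with a median of 1.12. At the other 119 the ratio ran from 0.424 to 2.50, which spans the 5, with a median of 0.552. The median of the 63 regions of both replicates 2 was 1.11. Large differences also went the other way at shared X regions. There the maximum of 0-2 h replicate 1 reached 152 times that of 0-2 h replicate 2. The maximum of 2-4 h replicate 1 reached 280 times that of 2-4 h replicate 2. At Femcoat the maximum was 59523 in 2-4 h replicate 2 and 59121 in 0-2 h replicate 2, but 136 in 0-2 h replicate 1.

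The broad regions of 2-4 h replicate 2 alone held 16 genes wholly inside them, of which 11 were Stellate genes and 12 were protein-coding. Outside the Stellate array these included the small nucleolar RNA genes snoRNA:Psi18S-531, snoRNA:Psi28S-2179 and snoRNA:Or-CD10. A region of 1270 bp in 0-2 h replicate 2 alone (X:16254223-16255492, maximum 12) held the U2 spliceosomal RNA gene snRNA:U2:14B, which has close copies elsewhere in the genome, so the source of its reads is uncertain.

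Genes touched by regions of 0-2 h replicate 2 alone were also touched by shared X regions at 50 of 95 genes (52.6%), against 27 of 72 for regions of both replicates 2 (37.5%) and 21 of 87 for broad regions of 2-4 h replicate 2 alone (24.1%). Shared X regions touched 139 of all 2498 X genes (5.56%), whose median length was 2.10 kb. The median length of the touched genes was 36.5 kb for regions of 0-2 h replicate 2 alone, 31.9 kb for those of both replicates 2 and 12.6 kb for the broad regions. The part of gene length in these overlaps was not tested.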
